A study of Mus musculus with 64 samples.

Results

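The genes described here are 9 markers of GABAergic interneurons, followed through bulk RNA sequencing of the prefrontal cortex (PFC) and the hypothalamus of mice given a single dose of psilocybin. They were chosen by name (Gad1, Gad2, Slc32a1, Pvalb, Calb2, Reln, Lamp5, Ndnf and Cplx3) and make up 9 of the 55401 genes in the table of counts. All 9 passed the filter on low counts, which left 18971 genes for the tests. The mice were chow-fed, group-housed C57BL/6J males, injected intraperitoneally at 10 weeks of age with 3 mg/kg psilocybin, a serotonin 5-HT2A receptor agonist, or with isotonic saline as vehicle. Tissue was taken in the morning, either 3 h or 4 weeks after the injection, so the 8 groups are vehicle 3 h, psilocybin 3 h, vehicle 4 weeks and psilocybin 4 weeks in each region. Each group had 8 mice, and the 32 mice each gave a PFC sample, which the labels call frontal cortex, and a whole hypothalamus. The mice carried no transgene and no deletion. All of them shared the injection, and the mice harvested at 4 weeks were older, so time after injection and age cannot be told apart.

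GABA is the main inhibitory transmitter of the brain. Inhibitory neurons make it from glutamate and load it into synaptic vesicles, and the genes for these steps mark GABAergic cells wherever they lie. In the cortex such cells are mostly local interneurons, a minority among glutamatergic projection neurons, and they fall into classes that are told apart by calcium-binding proteins, secreted proteins and peptides. In the hypothalamus GABAergic neurons are far more varied, many of them project, and several of the cortical class markers are also made by other cells there.

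Gad1 and Gad2 encode the glutamate decarboxylases GAD67 and GAD65, and Slc32a1 encodes VGAT, the carrier that fills vesicles with GABA. All 3 lie on chromosome 2 of GRCm38: Gad1 (ENSMUSG00000070880.10) from 70553072 to 70602014, Gad2 (ENSMUSG00000026787.3) from 22622205 to 22693874 and Slc32a1 (ENSMUSG00000037771.11) from 158610767 to 158615748, each on the plus strand. Pvalb (ENSMUSG00000005716.16, chromosome 15, 78191114 to 78206400, minus strand) encodes parvalbumin, the calcium buffer of fast-spiking basket and chandelier cells, and Calb2 (ENSMUSG00000003657.9, chromosome 8, 110137502 to 110168210, minus strand) encodes calretinin, made in the cortex by many VIP cells. Reln (ENSMUSG00000042453.14, chromosome 5, 21884454 to 22344702, minus strand) encodes the secreted glycoprotein reelin. Lamp5 (ENSMUSG00000027270.14, chromosome 2, 136052239 to 136069917, plus strand) encodes a vesicle membrane protein that marks neurogliaform cells and also occurs in excitatory neurons of the cortex. Ndnf (ENSMUSG00000049001.5, chromosome 6, 65671590 to 65712326, plus strand) encodes a secreted factor of layer 1 neurogliaform cells, and Cplx3 (ENSMUSG00000039714.9, chromosome 9, 57599992 to 57606281, minus strand) encodes a complexin of the vesicle fusion machinery that is found in layer 6b neurons and in some Lamp5 cells. Annotated genes overlap Gad1 (Gad1os) and Slc32a1 (Gm14205) on the opposite strand, Gad2 (Gm23636 and Mir3967) on the same strand, and Reln (4 on the opposite and 3 on the same strand). The library kit keeps strand and a read pair was counted if its ends lay on 1 strand, but the strand setting of the counter is not given in the sources used here, so reads of a gene and an overlapping one may not be told apart.

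The sequence before the start site is shown for Gad1 and Gad2, which moved together from library to library in both regions, and for Lamp5 and Cplx3, which were higher in the PFC by the widest margins. Each stretch was read 5′ to 3′ from RefSeq promoter windows of GRCm38.p6, stops where an annotated exon of the gene begins in the window, and has its CG dinucleotides in capitals. The Gad1 stretch lies inside the annotated gene, in an intron of its longer transcripts, and the other 3 end just before their gene.
Gad1 (chr2:70561879-70562041, plus strand): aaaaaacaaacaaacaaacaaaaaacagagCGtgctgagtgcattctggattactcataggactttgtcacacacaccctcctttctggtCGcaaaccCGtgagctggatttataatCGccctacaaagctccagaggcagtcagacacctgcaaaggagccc
Gad2 (chr2:22622077-22622204, plus strand): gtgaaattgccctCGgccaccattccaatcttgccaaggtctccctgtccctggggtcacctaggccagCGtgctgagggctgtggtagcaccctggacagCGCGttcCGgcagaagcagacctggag
Lamp5 (chr2:136052089-136052238, plus strand): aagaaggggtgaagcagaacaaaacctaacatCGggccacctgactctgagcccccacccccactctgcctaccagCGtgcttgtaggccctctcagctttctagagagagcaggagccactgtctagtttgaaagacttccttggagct
Cplx3 (chr9:57606282-57606531, minus strand): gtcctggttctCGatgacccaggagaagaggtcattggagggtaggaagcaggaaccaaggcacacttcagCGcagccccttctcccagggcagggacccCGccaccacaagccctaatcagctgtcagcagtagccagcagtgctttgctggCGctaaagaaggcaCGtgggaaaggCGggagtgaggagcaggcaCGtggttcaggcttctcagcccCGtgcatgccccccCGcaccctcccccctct
Over the 250 bases before each RefSeq start, 7 of the 9 genes had a window (9 windows in all, since Pvalb and Lamp5 had a pair of start sites each), and the median of the 32851 windows of the table held 6 CG dinucleotides. Reln stood at the CG-rich end with 37, a number reached by 2.2% of all windows, followed by 23 at the second Pvalb start, 17 for Gad1, 13 for Gad2 and 12 for Slc32a1. Lamp5 stood at the other end with 3 and 1 at its start sites, reached by 71% and 92.1% of windows, and Cplx3 had 9. The hexamer GGGCGG, searched on both strands, occurred 6 times in the Reln window and 1 time, on the reverse strand, in that of Gad1, and 32.7% of all windows held it at least 1 time. None of the other 7 windows of these genes held these letters.

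Of the 64 libraries, 62 were used, 31 from each region, with 8061033 to 70361839 counted reads (median 18287978.5). Hypothalamus vehicle 3 h replicate 2 (211111 counted reads) and PFC psilocybin 4 weeks replicate 3 (200066) were left out, so those groups have 7 libraries. The libraries carried the markers of their labelled region: 8 genes of cortical excitatory neurons summed to 1440 to 2071 CPM in the PFC and 99.8 to 218 in the hypothalamus, and 8 genes of hypothalamic neurons to 0.938 to 14.1 CPM and 340 to 2722 CPM. CPM are counts per 1000000 of the library size after TMM scaling. In hypothalamus psilocybin 4 weeks replicate 5, 6 of the genes had the most extreme value of all hypothalamus libraries, high for Calb2 (757 CPM) and Pvalb (117) and low for Reln (34.5), Gad2 (186), Gad1 (239) and Ndnf (5.75), and its hypothalamic neuron genes had the highest sum, 2722 CPM against at most 837. PFC psilocybin 4 weeks replicate 7 had the highest PFC values of Calb2 (89.4 CPM), Gad1 (525) and Reln (153), with olfactory bulb genes at 121 CPM against at most 38.1 in the other PFC libraries. Most marker results that rest on these 2 libraries are given with and without them, and the shares of all genes called are given with them. All tests of fold changes come from 1 edgeR quasi-likelihood model of group and extraction pool, with p-values adjusted by Benjamini-Hochberg over the 18971 genes and called under 0.05. In bulk tissue, fewer cells of a type and less RNA per cell cannot be told apart.

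**Figure D1:**
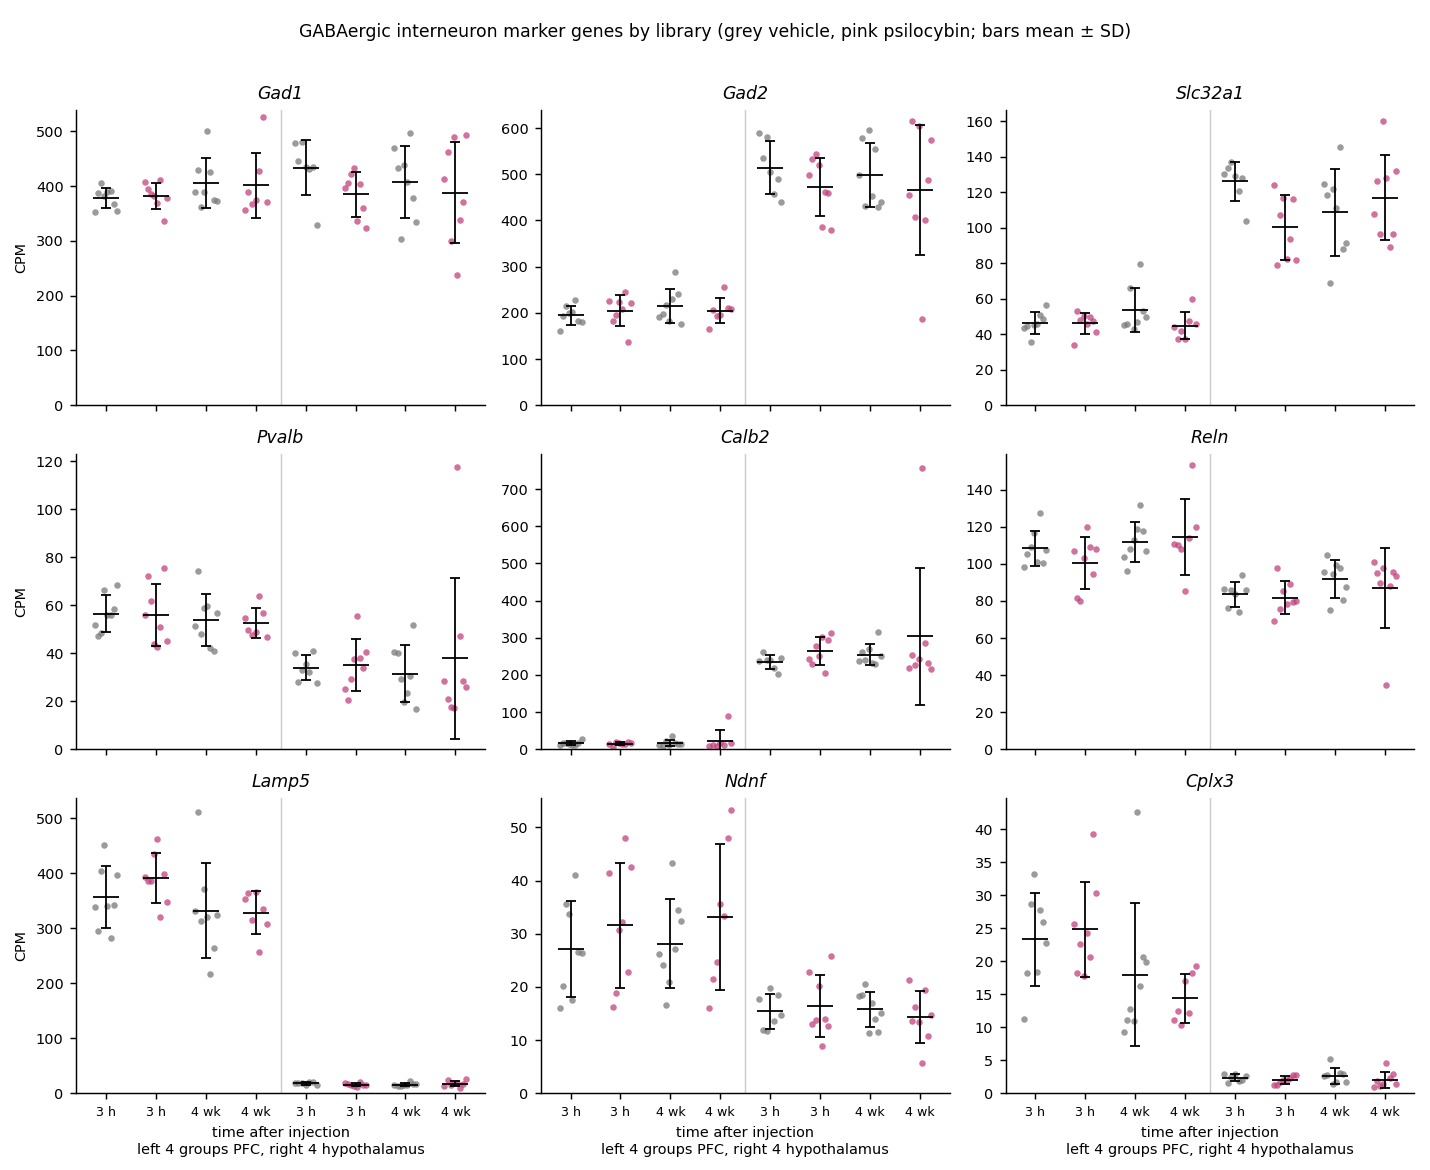
Level of each gene in CPM (y axis, from 0) in every library used, by group (x axis, time after injection; left 4 groups PFC, right 4 hypothalamus; grey vehicle, pink psilocybin). Horizontal bars are means and error bars SD over 7 or 8 libraries. Lamp5, Cplx3 and Calb2 separate the regions with no overlap while Gad1 does not, and the Calb2 point at 757 CPM is the hypothalamus library that stands apart.

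Which interneuron markers set the cortex apart from the hypothalamus was addressed by comparing the mean of the 4 PFC groups with that of the 4 hypothalamus groups. Of the 9 genes, 8 differed, 5 of them higher in the PFC (Lamp5, Cplx3, Ndnf, Pvalb and Reln) and 3 lower (Calb2, Gad2 and Slc32a1), against 76.2% of all genes tested (39.6% higher and 36.5% lower), so a share of this size is near the background. The median log2 difference of the 9 genes was 0.33 and that of all genes tested 0.02. The libraries of the regions did not overlap for Lamp5, Cplx3 and Calb2, and this was true of 11.3% of all genes tested. The PFC was extracted in pools C and D and the hypothalamus in pools A and B, so region and extraction pool cannot be told apart. The model has no term for the mouse, so the paired samples of 30 mice entered the fit as independent.

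Among the genes of GABA synthesis and loading, Gad1 was not called between the regions while Gad2 and Slc32a1 were lower in the PFC. Gad1 ran from 336 to 525 CPM in the PFC (median 385) and from 239 to 497 CPM in the hypothalamus (median 413), overlapping between 336 and 497 CPM. Its log2 difference was -0.04 (SE 0.05, 95% interval -0.14 to 0.05, adjusted p = 0.436 by edgeR's quasi-likelihood test), and it was higher in the PFC in 11 of the 30 mice with both regions. Gad2 ran from 137 to 287 CPM in the PFC (median 201) and from 186 to 616 CPM in the hypothalamus (median 490). The ranges touch only through the hypothalamus library at 186 CPM that stands apart. Gad2 was 2.38-fold lower in the PFC (log2 difference -1.25, SE 0.06, adjusted p = 3.38e-27 by edgeR's quasi-likelihood test), and lower in 29 of 30 mice. Slc32a1 ran from 33.7 to 79.4 CPM in the PFC (median 45.9) and from 68.8 to 160 CPM in the hypothalamus (median 117), overlapping between 68.8 and 79.4 CPM. It too was 2.38-fold lower in the PFC (log2 difference -1.25, SE 0.06, adjusted p = 1.23e-26 by edgeR's quasi-likelihood test), and lower in all 30 mice.

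The balance of these genes within a library changed accordingly. Levels per kilobase of gene length (RPKM) gave a Gad1 to Gad2 ratio of 1.49 ± 0.185 (SD, n = 31 libraries) in the PFC, ranging from 1.14 to 1.92, and of 0.645 ± 0.0804 (SD, n = 31) in the hypothalamus, ranging from 0.541 to 0.984. By this measure Gad1 stood above Gad2 in every PFC library and below it in every hypothalamus library. Which gene stands higher depends on the gene lengths used, 7639 bases for Gad1 and 5876 for Gad2. The difference of the ratio between the regions does not. The mean log2 difference of this ratio was 1.20 (SD 0.27) in 30 mice, PFC higher in all 30 (sign-flip permutation test, two-sided, p = 1e-05, the smallest that 100000 permutations can give, adjusted p = 1.4e-05 over 7 ratios). The Slc32a1 to Gad1 ratio was 0.335 ± 0.0629 (SD, n = 31) in the PFC and 0.771 ± 0.153 (SD, n = 31) in the hypothalamus, lower in the PFC in all 30 mice (mean log2 difference -1.20, SD 0.41, permutation p = 1e-05). The Slc32a1 to Gad2 ratio was 0.496 ± 0.0942 (SD, n = 31) and 0.505 ± 0.184 (SD, n = 31), and the PFC was higher in 16 of 30 mice (mean log2 difference 0.00, SD 0.51, permutation p = 0.962). Without the 2 mice of the libraries that stand apart, these differences were 1.20, -1.15 and 0.05 in 28 mice. The ratios were chosen after the values were seen.

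**Figure D2:**
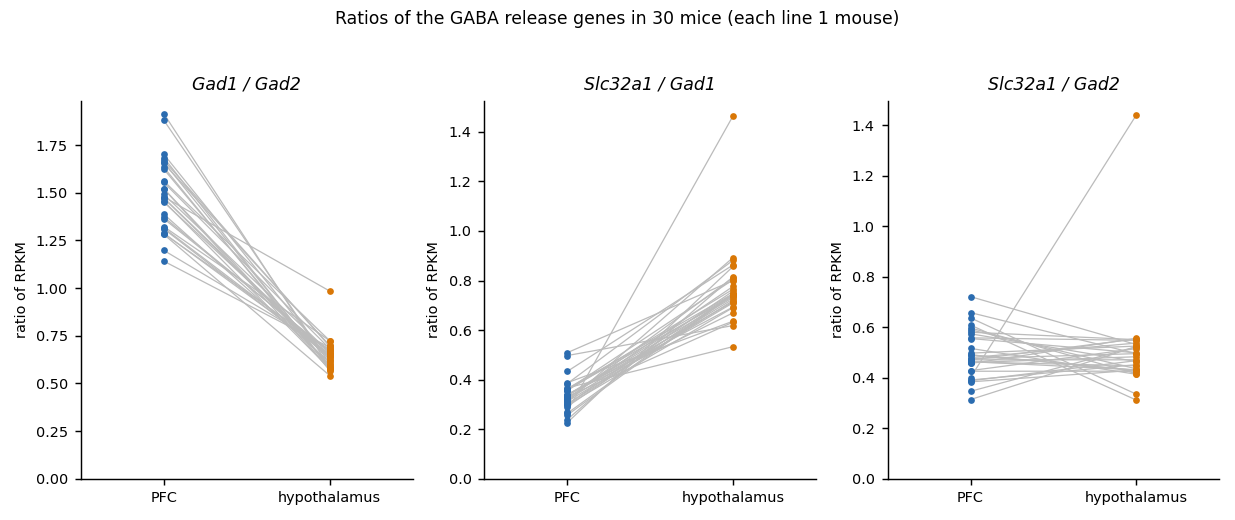
Ratios of RPKM (y axes, from 0) of Gad1 to Gad2, Slc32a1 to Gad1 and Slc32a1 to Gad2 in the PFC and the hypothalamus (x axes), with 1 line for each of 30 mice. The first ratio is higher in the PFC in every mouse, the second lower in every mouse and the third higher in 16. The steep line to 1.44 in the third panel ends in the hypothalamus library that stands apart.

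The class markers split further. Lamp5 ran from 218 to 512 CPM in the PFC (median 343) and from 10.5 to 25.8 CPM in the hypothalamus (median 16.5), with no overlap. It was 20.5-fold higher in the PFC (log2 difference 4.36, SE 0.07, adjusted p = 2.29e-50 by edgeR's quasi-likelihood test), the rank of its p being 11 among 18971 genes. Cplx3 ran from 9.36 to 42.7 CPM in the PFC (median 18.3) and from 0.991 to 5.24 CPM in the hypothalamus (median 2.06). The ranges again lay apart, and Cplx3 was 8.53-fold higher in the PFC (log2 difference 3.09, SE 0.13, adjusted p = 8.20e-31 by edgeR's quasi-likelihood test). Its hypothalamic values rest on few reads, as few as 9 counts in a library.

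Calb2 went the other way. It ran from 6.58 to 89.4 CPM in the PFC (median 14.8) and from 204 to 757 CPM in the hypothalamus (median 242), and even the highest PFC library was below the lowest hypothalamus library. The calretinin gene was 15.1-fold lower in the PFC (log2 difference -3.91, SE 0.16, adjusted p = 5.04e-29 by edgeR's quasi-likelihood test). Its log2 difference lay between -4.11 and -3.83 when settings were changed or libraries left out. Genes of the thalamus (Tcf7l2, Prkcd, Rgs16 and Lef1) summed to 123 to 431 CPM in the hypothalamus libraries and 23.8 to 45.3 CPM in the PFC. The part of thalamic tissue in the Calb2 result was not tested.

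Pvalb, Ndnf and Reln were higher in the PFC by smaller factors, and their ranges overlapped. Pvalb ran from 41.0 to 75.5 CPM in the PFC (median 54.8) and from 16.6 to 117 CPM in the hypothalamus (median 30.6), a log2 difference of 0.69 (SE 0.12, adjusted p = 4.11e-07 by edgeR's quasi-likelihood test), with the PFC higher in 27 of 30 mice. Ndnf ran from 16.1 to 53.1 CPM (median 27.1) and from 5.75 to 25.8 CPM (median 14.7), a log2 difference of 0.92 (SE 0.11, adjusted p = 7.07e-11 by edgeR's quasi-likelihood test), and was higher in the PFC in 26 of 30 mice. Reln ran from 79.9 to 153 CPM (median 108) and from 34.5 to 105 CPM (median 87.8). This was the smallest of the called differences, 1.26-fold (log2 difference 0.33, SE 0.06, adjusted p = 3.38e-07 by edgeR's quasi-likelihood test), yet 28 of 30 mice showed it. The ratio of Reln to Ndnf, both markers of layer 1 cells in cortex, was 1.71 ± 0.535 (SD, n = 31) in the PFC and 2.51 ± 0.631 (SD, n = 31) in the hypothalamus, and was lower in the PFC in all but 4 of 30 mice.

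**Figure D3:**
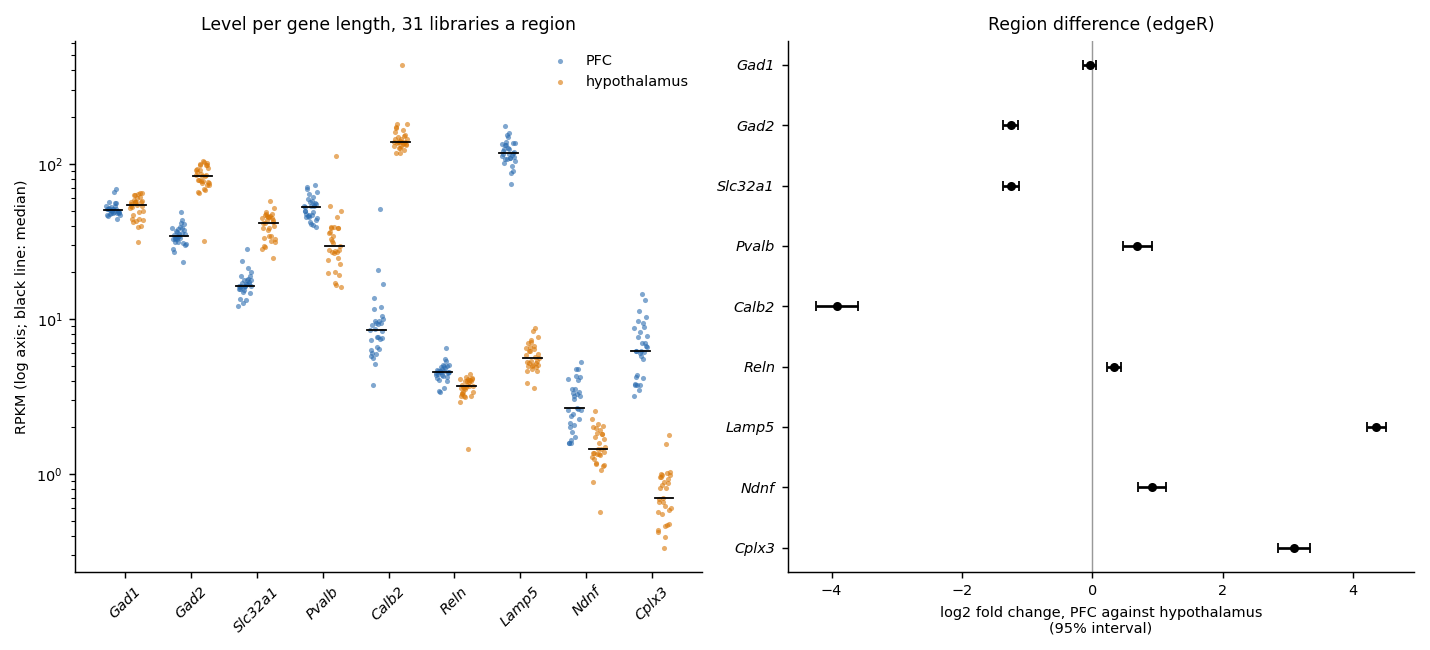
Left, RPKM of each gene in every library (log axis; 31 libraries a region; black lines are medians). Right, log2 fold change of PFC against hypothalamus (x axis) with its 95% interval for each gene (y axis). Lamp5 and Cplx3 lie far to the right at 4.36 and 3.09, Calb2 far to the left at -3.91, and the interval of Gad1 spans 0.

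Levels per gene length order the markers differently in the regions. The order within a region rests on annotated gene lengths, since the lengths of the transcripts present were not measured. In the PFC Lamp5 led with 120 ± 21.4 RPKM (SD, n = 31), above Pvalb (52.7 ± 9.09) in all 31 libraries. Pvalb and Gad1 (51.3 ± 5.13) did not differ beyond their spread, Pvalb being the higher in 15 of 31 libraries. Gad2 (34.9 ± 5.07) and Slc32a1 (17.1 ± 3.18) followed, each below the gene before it in all 31 libraries. The lower end of the order held Calb2 (10.2 ± 8.35), Cplx3 (6.88 ± 2.86), Reln (4.58 ± 0.605) and Ndnf (2.96 ± 1.04). Of these, Calb2 did not differ beyond the spread from Slc32a1 above or Cplx3 below, nor Cplx3 from Reln, while Reln exceeded Ndnf in 29 of 31 libraries. Without the PFC library that stands apart, Calb2 was at 8.87 ± 3.49 RPKM and Slc32a1 at 16.9 ± 3.13 (SD, n = 30), a gap beyond their spread, and no other neighbours in either region changed in this respect. In the hypothalamus Calb2 led with 152 ± 55.0 RPKM (SD, n = 31), followed by Gad2 (82.8 ± 15.0), Gad1 (52.7 ± 8.57), Slc32a1 (40.2 ± 7.73) and Pvalb (33.3 ± 17.5). Slc32a1 and Pvalb did not differ beyond their spread there, with Slc32a1 the higher in 24 of 31 libraries. Without the hypothalamus library that stands apart, Calb2 was at 143 ± 17.2 RPKM and Pvalb at 30.6 ± 9.62 (SD, n = 30), with the same order. Lamp5 (5.83 ± 1.22), Reln (3.63 ± 0.556), Ndnf (1.53 ± 0.429) and Cplx3 (0.777 ± 0.320) closed the order, each below its neighbour in at least 30 of 31 libraries. Lamp5 thus ranked 1 of 9 in the PFC and 6 of 9 in the hypothalamus, and Calb2 6 of 9 and 1 of 9.

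The study's own question was whether psilocybin changed gene expression in these regions, and it was put to these markers at each time. No marker was called in any of the 4 comparisons. Among all genes tested, 0.0105% were called in the PFC at 3 h (2 genes), and 0% in the PFC at 4 weeks, the hypothalamus at 3 h and the hypothalamus at 4 weeks, by edgeR's quasi-likelihood test. At an unadjusted p under 0.05, 0 of the 9 markers passed in the PFC at 3 h (1371 of all genes, 7.23%), 1 in the PFC at 4 weeks (456, 2.4%), 1 in the hypothalamus at 3 h (337, 1.78%) and 0 in the hypothalamus at 4 weeks (1823, 9.61%). DESeq2 called 9, 19, 0 and 13 of all genes, and the weighted voom fit called 1232, 0, 0 and 0, none of them a marker described here. The voom fit follows the procedure of the paper, which reported significant differential expression in the PFC at 3 h. The number of all genes called there thus depends strongly on the method. The median log2 fold changes of the 9 markers were 0.02, -0.02, -0.14 and -0.08, against -0.01, -0.01, -0.00 and 0.01 for all genes tested.

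In the PFC at 3 h the log2 fold changes of the 9 markers lay between -0.11 (Reln) and 0.19 (Ndnf), and the smallest adjusted p was 0.859. Gad1 was at 353 to 405 CPM (median 385) after vehicle and 336 to 410 CPM (median 383) after psilocybin, and the psilocybin range covered that of vehicle. Its 95% interval for the log2 change, -0.17 to 0.20, was the narrowest of the 9. The parvalbumin gene had a median of 55.9 CPM after vehicle and 53.3 CPM after psilocybin, with an interval from -0.46 to 0.42. The interval was widest for Calb2, from -0.67 to 0.52, so changes of that size in calretinin transcript could not be detected here.

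In the PFC at 4 weeks Slc32a1 had the smallest p-value of the markers. It was at 42.8 to 79.4 CPM (median 48.3) after vehicle and 37.3 to 60.0 CPM (median 43.9) after psilocybin. The groups overlapped between 42.8 and 60.0 CPM, and the 79.4 CPM belonged to 1 vehicle library. The log2 fold change was -0.27 (SE 0.13, 95% interval -0.52 to -0.03, unadjusted p = 0.0346 and adjusted p = 1 by edgeR's quasi-likelihood test). Within extraction pools C and D the difference was -0.26 and -0.26, and it was -0.18 without vehicle replicate 6, the library at 79.4 CPM, which also had the most striatal neuron transcript of the PFC (8 genes summing to 2107 CPM, against 257 to 941 CPM in the other libraries of both groups). The part of striatal tissue in the result was not tested. Cplx3 came to -0.31 and Calb2 to 0.32, neither called, and the Calb2 value was -0.47 without psilocybin replicate 7, the library with olfactory bulb transcript. The Cplx3 value was -0.049 without vehicle replicate 5, the library at 42.7 CPM of Cplx3.

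In the hypothalamus at 3 h Slc32a1 was again the marker with the smallest p-value. The VGAT gene was at 104 to 137 CPM (median 129) after vehicle (n = 7) and at 79.2 to 124 CPM (median 100.3) after psilocybin (n = 8). The psilocybin libraries reached lower, and the groups overlapped between 104 and 124 CPM. The log2 fold change was -0.34 (SE 0.12, unadjusted p = 0.00816 and adjusted p = 1 by edgeR's quasi-likelihood test, the rank of its p being 44 among 18971 genes), so it fails the correction. It was -0.34 within pool A and -0.38 within pool B, and between -0.39 and -0.29 when any library was left out. Gad1 was at a median of 435 CPM after vehicle and 400 CPM after psilocybin, a log2 fold change of -0.18 (unadjusted p = 0.0673 by edgeR's quasi-likelihood test). Striatal neuron genes summed to 230 to 656 CPM (median 369) after vehicle and 207 to 379 CPM (median 254) after psilocybin in these libraries, and their part in the result was not tested. Calb2 had a log2 fold change of 0.17 and the other markers lay between it and that of Slc32a1.

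In the hypothalamus at 4 weeks Slc32a1 was at 68.8 to 146 CPM (median 115) after vehicle and 89.1 to 160 CPM (median 117) after psilocybin, a log2 fold change of 0.10. The groups overlapped between 89.1 and 146 CPM. The markers lay between -0.30 (Cplx3) and 0.24 (Calb2), with a smallest adjusted p of 0.739 by edgeR's quasi-likelihood test. The Calb2 value rests on the library at 757 CPM, and without psilocybin replicate 5 it was -0.09. The Cplx3 value was -0.57 without that library and -0.11 without vehicle replicate 3.

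**Figure D4:**
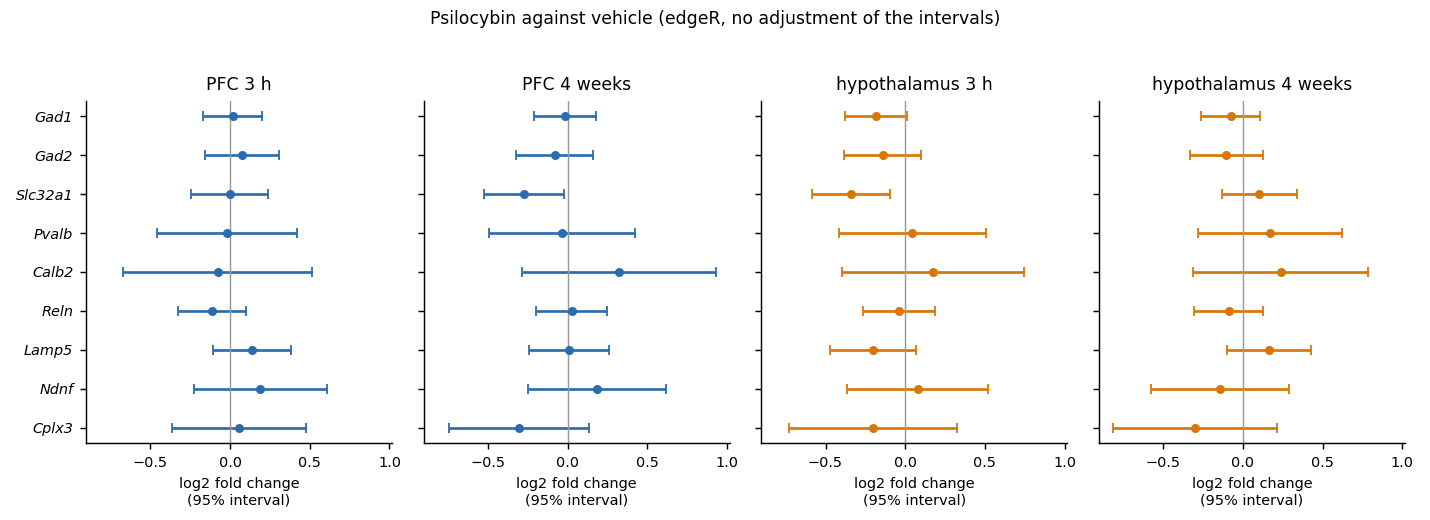
Log2 fold change of psilocybin against vehicle (x axes) with its unadjusted 95% interval for each marker (y axis), in 4 panels by region and time (blue PFC, orange hypothalamus). Of 36 intervals, only those of Slc32a1 in the PFC at 4 weeks and the hypothalamus at 3 h leave out 0, and neither passed the adjustment over all genes.

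Whether the response differed between regions or times was tested directly. No marker was called in any of the 4 tests, in which 0% of all genes tested were called by edgeR's quasi-likelihood test. At an unadjusted p under 0.05, the share of all genes was 2.78% between regions at 3 h, 6.69% between regions at 4 weeks, 3.08% between times in the PFC and 5.27% between times in the hypothalamus, where DESeq2 called 0, 64, 4 and 0 genes and the weighted voom fit 8, 0, 1 and 0. Slc32a1 had the smallest p-values: its response in the PFC minus that in the hypothalamus was 0.34 at 3 h (unadjusted p = 0.0583) and -0.38 at 4 weeks (unadjusted p = 0.0343, adjusted p = 0.737), and its response at 4 weeks minus that at 3 h was 0.45 in the hypothalamus (unadjusted p = 0.0127, adjusted p = 0.904) and -0.27 in the PFC. For Lamp5 the response in the PFC minus that in the hypothalamus was 0.34 at 3 h (unadjusted p = 0.0726, not called). These tests share their groups with the comparisons above, and those between regions take both samples of a mouse as independent.

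Comparing 4 weeks with 3 h after injection within a treatment gave 1 called marker, the only one outside the comparison of regions. Cplx3 in the PFC of psilocybin-treated mice was at 17.7 to 39.3 CPM (median 23.4) at 3 h (n = 8) and at 10.3 to 19.3 CPM (median 12.4) at 4 weeks (n = 7). The later libraries lay below most of the earlier ones and overlapped them only between 17.7 and 19.3 CPM. Cplx3 was 1.78-fold lower at 4 weeks (log2 fold change -0.84, SE 0.23, 95% interval -1.28 to -0.39, adjusted p = 0.0166 by edgeR's quasi-likelihood test), and 1 of 9 markers was called, against 5.96% of all genes tested (2.7% lower). The difference was -0.88 within pool C and -0.75 within pool D. It stayed called when any of the 15 libraries was left out (adjusted p from 0.0124 to 0.0410 by edgeR's quasi-likelihood test), but not with no filter on low counts (adjusted p = 0.0503) or without the extraction pool in the model (log2 fold change -0.78, adjusted p = 0.0657).

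After vehicle the same gene was at 11.2 to 33.3 CPM (median 24.4) at 3 h and at 9.36 to 42.7 CPM (median 14.6) at 4 weeks (n = 8 each). The later group holds both the lowest and the highest library. The log2 fold change was -0.47 (SE 0.22, unadjusted p = 0.0328, adjusted p = 0.223 by edgeR's quasi-likelihood test), where 4.72% of all genes tested were called, and -0.93 within pool C but -0.02 within pool D. Without vehicle 4 weeks replicate 5, the library at 42.7 CPM, it was -0.71 and called (adjusted p = 0.0322 by edgeR's quasi-likelihood test). The change over time was not shown to differ between treatments, the difference being -0.36 (unadjusted p = 0.246, adjusted p = 1 by edgeR's quasi-likelihood test).

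Markers of layer 6b neurons, which also make Cplx3, moved with it in part. The sum of Ccn2, Nxph4 and Moxd1 in the PFC was 29.1 to 46.4 CPM after psilocybin at 3 h and 17.9 to 34.6 CPM at 4 weeks, and 20.8 to 52.2 CPM and 14.3 to 60.9 CPM after vehicle. Ccn2, a secreted matrix protein gene, fell by 0.96 on the log2 scale after psilocybin (SE 0.25, adjusted p = 0.0108 by edgeR's quasi-likelihood test), while Nxph4 (-0.39) and Moxd1 (0.29) were not called. Other lists also moved between these psilocybin groups. The sum of 4 meningeal genes was 1091 to 4477 CPM (median 2391) at 3 h and 907 to 2697 CPM (median 1254) at 4 weeks, with 0 of 4 called, and that of 16 genes of other interneuron classes and peptides was 1233 to 1513 CPM (median 1385) and 1096 to 1277 CPM (median 1141). Of the olfactory bulb genes, 2 of 3 tested were called higher, and 1 of 4 astrocyte, 1 of 4 microglia and 1 of 4 immune genes tested lower. The olfactory bulb sum was 121 CPM in psilocybin 4 weeks replicate 7, which stands apart. It was 3.62 to 16.5 CPM in the other libraries of that group and 2.19 to 8.62 CPM at 3 h. The part of layer 6b or other tissue in the Cplx3 result was not tested. Of the other interneuron lists, 1 of 14 lineage factors, 1 of 16 genes of other classes and none of the 5, 7 and 7 genes of the remaining lists were called, a share near the 5.96% of all genes. These were Nr2f2, a transcription factor of caudally derived interneurons (log2 fold change -0.51, adjusted p = 0.0303), and Cxcl14, a chemokine of some of those cells (log2 fold change -0.34, adjusted p = 0.0492), both lower, by edgeR's quasi-likelihood test.

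The remaining markers did not pass over time. At an unadjusted p under 0.05, Cplx3 alone passed in the PFC after vehicle (18% of all genes tested) and after psilocybin (20.4%), and no marker in the hypothalamus after vehicle (8.09%) or after psilocybin (17.4%). In the PFC after psilocybin, Lamp5 came to -0.24 (unadjusted p = 0.0666) and Calb2 to 0.43, the latter -0.35 without psilocybin 4 weeks replicate 7. Slc32a1 came to 0.22 in the PFC after vehicle, -0.22 in the hypothalamus after vehicle and 0.23 in the hypothalamus after psilocybin (unadjusted p = 0.0831, 0.0849 and 0.0640). None of the 9 markers was called in the hypothalamus after vehicle, where 0.685% of all genes tested were, or after psilocybin, where 1.16% were. The change after vehicle differed between the regions by 0.43 for Slc32a1 (unadjusted p = 0.0158, adjusted p = 0.677) and by -0.62 for Cplx3 (unadjusted p = 0.0781), neither called by edgeR's quasi-likelihood test, where 0.0369% of all genes tested were (5.84% at an unadjusted p under 0.05).

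How the markers varied together was followed in the deviations of log2 CPM from the group and pool means, over 31 libraries of 1 region, for 36 pairs a region and 72 in all. By Pearson's r, 27 pairs passed (10 in the PFC and 17 in the hypothalamus; permutation test with 100000 permutations, two-sided, adjusted over the 72 pairs). Without the 2 libraries that stand apart, 13 pairs passed (6 and 7), of which 11 were among the 27. In the hypothalamus Gad1 moved with both Gad2 and Slc32a1. Gad1 and Gad2 had r = 0.84 and rho = 0.72 over 31 libraries (permutation p = 1e-05 for each, adjusted p = 0.00024 and 0.00036), 0.83 in pool A and 0.87 in pool B, 0.80 without the 2 libraries farthest from the Gad1 median, and r = 0.85 without the library that stands apart. Gad1 and Slc32a1 had r = 0.60 and rho = 0.56 (adjusted permutation p = 0.00336 and 0.0186), which rose to r = 0.81 and rho = 0.75 over the 30 libraries without the one that stands apart. Gad2 and Slc32a1 had r = 0.30 and rho = 0.46 over all 31 libraries (adjusted permutation p = 0.206 and 0.0482), and r = 0.72 and rho = 0.65 without that library (adjusted permutation p = 0.00048 and 0.0036), so this relation depends on leaving it out. Lamp5 and Gad2 likewise went from r = 0.30 (adjusted permutation p = 0.199) to 0.66, and Lamp5 and Gad1 from 0.48 (adjusted permutation p = 0.0300) to 0.62.

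Of the hypothalamic pairs that failed without that library, the strongest was Calb2 with Reln, r = -0.87 and rho = -0.72 over 31 libraries (permutation p = 1e-05 for each). It was -0.48 in pool A and -0.94 in pool B, and -0.56 without the 2 libraries farthest from the Calb2 median, so much of it rests on those libraries. Without the library that stands apart it was r = -0.40 (adjusted permutation p = 0.0851). In the PFC Gad1 and Gad2 had r = 0.50 and rho = 0.57 (adjusted permutation p = 0.0242 and 0.0186), r = 0.51 and 0.50 within pools C and D, and r = 0.62 without the library that stands apart. Slc32a1 passed with neither of them there, at r = 0.08 and rho = -0.01 with Gad1 and r = 0.17 and rho = 0.14 with Gad2. Reln and Ndnf had r = 0.50 and rho = 0.53 (adjusted permutation p = 0.0218 for each), and r = 0.47 without that library. Gad1 and Calb2 had r = 0.46 over 31 PFC libraries but rho = 0.10, and r = -0.12 without the 2 libraries farthest from the Gad1 median, so the relation rests on those libraries.

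The markers also moved with summed marker genes of other cells and neighbouring tissue, over 162 pairs of a marker and a list (adjusted over these, and chosen after the values were seen). In the PFC Cplx3 moved with the layer 6b list, r = 0.84 and rho = 0.72 (permutation p = 1e-05 for each, adjusted p = 0.000324), 0.92 in pool C and 0.75 in pool D, and 0.71 without the 2 libraries farthest from the list's median. That list sums only Ccn2, Nxph4 and Moxd1, and Ccn2 alone had r = 0.83 with Cplx3. Ndnf moved with astrocyte genes, r = 0.87 and rho = 0.88 (permutation p = 1e-05 for each, adjusted p = 0.000324), 0.90 and 0.84 within pools, and 0.85 without the 2 farthest. It went against the cortical excitatory neuron list, r = -0.79 and rho = -0.72 (adjusted permutation p = 0.000324 and 0.00054). Gad2 went against the same excitatory list, r = -0.73 and rho = -0.75 (adjusted permutation p = 0.000607 and 0.000324), and with striatal neuron genes, r = 0.69 and rho = 0.67 (adjusted permutation p = 0.0009 and 0.00116), 0.61 without the 2 farthest. Calb2 moved with olfactory bulb genes, r = 0.75 and rho = 0.62 (adjusted permutation p = 0.000463 and 0.00378), which came to r = 0.50 without the library that stands apart. Gad1 had r = 0.72 but rho = 0.47 with the same genes (adjusted permutation p = 0.000463 and 0.0617), r = 0.42 without the 2 farthest and 0.53 without the library that stands apart. The part of neighbouring tissue and of other cells in the results above was not tested.

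In the hypothalamus Lamp5 moved with striatal neuron genes, r = 0.81 and rho = 0.79 (permutation p = 1e-05 for each, adjusted p = 0.000324), 0.78 in pool A and 0.83 in pool B and 0.75 without the 2 farthest. Gad1 did so less strongly, r = 0.66 and rho = 0.66 (adjusted permutation p = 0.00113 and 0.00223). Pvalb moved with oligodendrocyte genes, r = 0.74 and rho = 0.77 (permutation p = 1e-05 for each, adjusted p = 0.000324), 0.74 and 0.78 within pools, and r = 0.76 without the library that stands apart.

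**Figure D5:**
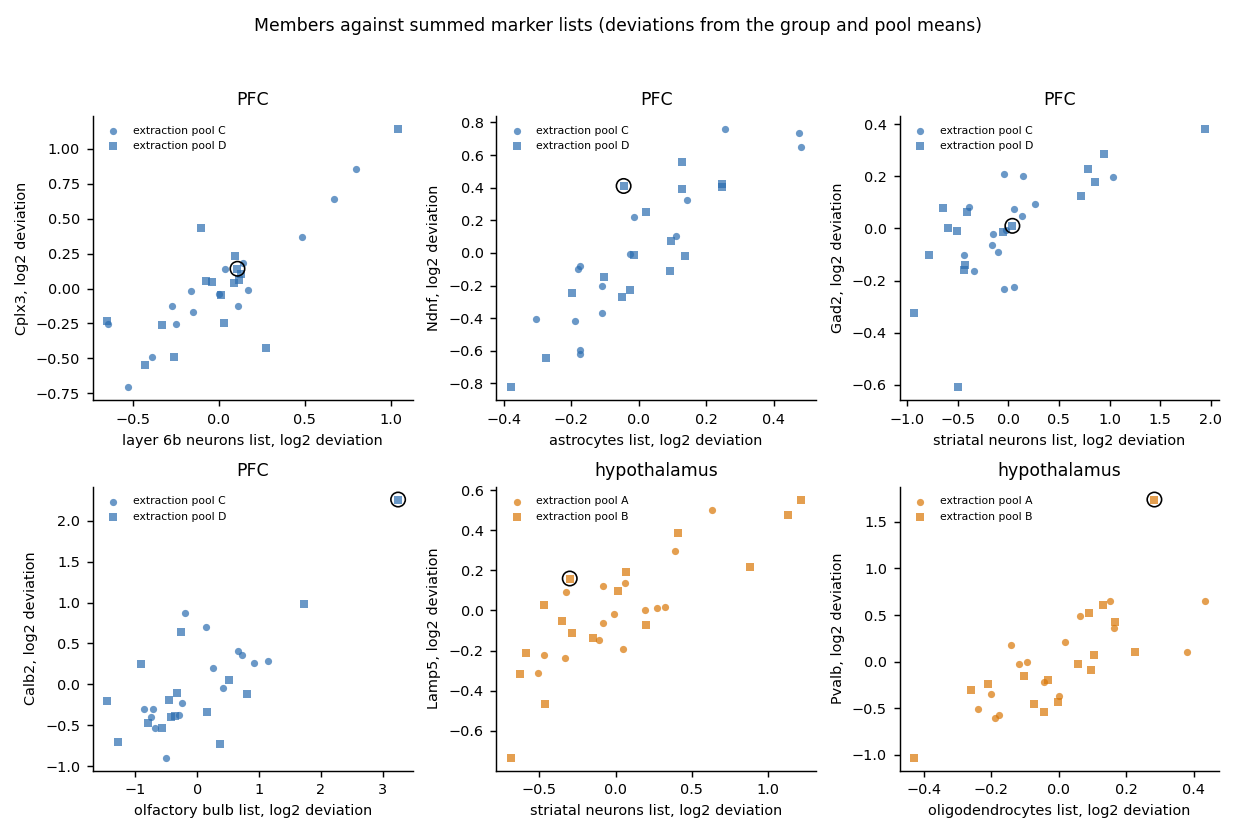
Deviations from group and pool means in log2 units of 6 markers (y axes) against the log2 sum of a marker list (x axes), 31 libraries a panel, with symbols by extraction pool (blue PFC, orange hypothalamus). Circled points are the 2 libraries that stand apart. Cplx3 with layer 6b genes (r = 0.84) and Ndnf with astrocyte genes (r = 0.87) do not depend on the circled point, while Calb2 with olfactory bulb genes falls from r = 0.75 to 0.50 without it.

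Across all genes tested, those most like each marker from library to library were named by the highest r over 31 libraries of a region, as a description and with no p. In the PFC they were Klhl13 for Gad2 (r = 0.93, and 0.93 without the library that stands apart), Slc14a1 for Ndnf (0.92 and 0.92), Ccn2 for Cplx3 (0.83 and 0.83), the potassium channel subunit gene Kcns1 for Pvalb (0.82 and 0.82) and Spats2l for Lamp5 (0.82 and 0.83). Nrsn2 came first for Slc32a1 (r = 0.80), Lhx5 for Calb2 (0.83, and 0.67 without that library), Fam184a for Gad1 (0.82) and Plcb2 for Reln (0.69). Without the PFC library that stands apart, the first gene was Lingo3 for Slc32a1 (r = 0.80), Grsf1 for Gad1 (0.79) and Robo1 for Reln (0.73). In the hypothalamus they were Baiap2 for Lamp5 (r = 0.90, and 0.91 without the library that stands apart) and Pcdh8 for Slc32a1 (0.84 and 0.90). For the markers that the library at 757 CPM of Calb2 pulls on, the leading gene changed without it. Cnr1 came first for Gad2 (r = 0.93) with it and Cpne5 (0.86) without it, Spred2 for Reln (0.93) with it and Adcy2 (0.70) without it, and Gfer for Calb2 (0.92) with it and Tspan18 (0.79) without it.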

How the data were processed

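RNA from 64 samples was sequenced by the authors from poly-A libraries. Per the methods and the submitters' processing notes, reads were demultiplexed with bcl2fastq 2.20.0, aligned to GRCm38 with STAR 2.7.2b and counted on GENCODE genes with featureCounts 1.6.2. The deposited values are whole-number counts per gene, neither normalized nor pooled, and 55141 of 55401 IDs matched a symbol.

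Libraries with at least 1000000 counts were kept (62). Depth limits the precision of genes with few counts. In R 4.3.3, edgeR 4.0.16 was used for filterByExpr (minimum count 10), TMM and a robust quasi-likelihood fit of group and extraction pool, the authors' covariates, coded within region. RPKM used the gene length in the table, and log2 CPM a prior count of 2. The members and lists were chosen with earlier results of these data known. Beside all 9 members, the text names the list genes with the 3 smallest p-values in a comparison, any called, and the 3 genes most like a member, of which the text gives a part. Some list genes are not reported here.

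Within a region the samples come from separate mice, so p-values there measure the spread between mice. The edgeR model has no term for the mouse, so comparisons between regions take both samples of a mouse as independent. In the voom fit the correlation between samples of a mouse was 0.028. Samples of the same treatment, time and cage number were taken as 1 mouse, since mouse identity is given only through the cage. No 2 libraries of a group were identical, and the lowest chi-square per degree of freedom over 210 pairs was 3.85. Same-cage libraries had mean correlations of 0.081 (PFC) and 0.072 (hypothalamus) between deviations from group means, and of -0.042 and -0.024 with the pool also removed. For libraries of different cages these means were -0.042 and -0.039, and -0.029 and -0.027 with the pool removed. Alternatives were DESeq2 1.42.0, voom with quality weights (limma 3.58.1) with the animal as a block, other size factors, filters and model terms, and each library left out. On simulated counts with 200 genes changed by 1 on the log2 scale between vehicle and psilocybin in the PFC at 3 h, edgeR recovered 194, with 13 false calls, among 18826 genes. The changed genes were drawn from those with higher counts, so the check does not cover smaller changes or genes with few counts.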

Additional observations from a re-analysis of the deposited data

Results flagged for a closer look

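In groups of 7 or 8 libraries, 11 values in 8 libraries lay farther from the rest than Dixon's 95% critical value allows, among 72 combinations of gene and group. Chance gives about 1 in 20.

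Of these, 3 were in hypothalamus psilocybin 4 weeks replicate 5, with Calb2 at 757 CPM (others 215 to 286), Pvalb at 117 CPM (others 17.3 to 47.1) and Reln at 34.5 CPM (others 88.1 to 101). In PFC psilocybin 4 weeks replicate 7, Calb2 was at 89.4 CPM (others 8.97 to 17.3) and Gad1 at 525 CPM (others 357 to 428).

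Cplx3 was at 42.7 CPM in PFC vehicle 4 weeks replicate 5 (others 9.36 to 20.7) and at 5.24 CPM in hypothalamus vehicle 4 weeks replicate 3 (others 1.40 to 3.04). Calb2 was at 29.1 CPM in PFC vehicle 3 h replicate 8 (others 11.4 to 16.9) and at 317 CPM in hypothalamus vehicle 4 weeks replicate 7 (others 229 to 269). Gad1 was at 329 CPM in hypothalamus vehicle 3 h replicate 8 (others 430 to 481), and Lamp5 at 22.6 CPM in hypothalamus vehicle 4 weeks replicate 6 (others 13.5 to 17.3), the library with the most wound healing and immune transcript (153 CPM, the next highest library 67.8).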

How the results depend on the processing

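Over 13 settings and each library left out, the 36 fold changes of a marker between psilocybin and vehicle were called in 0 cases. Of 126 marker fold changes, 9 were called and none of these changed sign, while 54 of the other 117 did in at least 1 setting or left-out library. The region comparison called 8 markers in all settings except at least 10 counts in every library (7), which Cplx3 did not pass.

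The count over time in the PFC after psilocybin was 1, and 0 with no filter on low counts (log2 fold change of Cplx3 -0.84), with at least 10 counts in every library (Cplx3 not tested) or with no extraction pool (Cplx3 -0.78). With the cage number as a replicate block it was 1 (Cplx3 -0.81, adjusted p = 0.0345 by edgeR), and the block changed no other call. Leaving out a library gave 0 to 1 in the PFC after vehicle (Cplx3 -0.71 without replicate 5). The weighted voom fit gave 1 in the hypothalamus after psilocybin (Reln 0.23, adjusted p = 0.0441, from 0.08 by edgeR). Pairs of markers that passed fell from 27 to 13 without the 2 libraries that stand apart.

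Among the fold changes the report prints, signs turned for Calb2 and Cplx3. Calb2 went from 0.32 to -0.14 (voom) and -0.47 (without the 2 libraries), and to between -0.47 and 0.53 with 1 library left out, in the PFC at 4 weeks, from 0.24 to -0.067 (voom) and -0.087 (without psilocybin replicate 5, alone or with the other), and to between -0.087 and 0.30 with 1 library left out, in the hypothalamus at 4 weeks, and over time in the PFC after psilocybin from 0.43 to -0.093 (voom) and -0.35 (without the 2 libraries), and to between -0.35 and 0.57 with 1 library left out. Cplx3 over time in the hypothalamus after vehicle went from 0.15 to -0.097 (voom), and to between -0.046 (without 4 weeks replicate 3) and 0.25 with 1 library left out. Of the others, Pvalb in the hypothalamus at 4 weeks went from 0.17 to -0.26 without psilocybin replicate 5, and over time after psilocybin from 0.06 to -0.43 (voom). In the hypothalamus at 4 weeks, Gad2 went from -0.10 and Reln from -0.089 to 0.012 and 0.035 without psilocybin replicate 5. Counts of all genes moved more, for example from 1131 to between 552 and 3615 over time in the PFC after psilocybin and from 2 to between 0 and 1232 in the PFC at 3 h, the highest count in both by the weighted voom fit. The cause was not tested. No region contrast restricted to its own groups was run, since it holds all libraries.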

Other observations

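Other GABA-related genes were also compared between the regions, where 76.2% of all genes tested were called, 39.6% higher and 36.5% lower in the PFC, so that counts near these shares are near the background. Of the 5 genes of GABA uptake and breakdown, 4 were lower in the PFC, led by the transporter gene Slc6a11 (log2 difference -2.37), the transaminase gene Abat (-1.10) and the dehydrogenase gene Aldh5a1 (-0.56), and Slc6a13, a transporter of the meninges, was higher (2.17), with a list median of -0.56 against 0.02 for all genes tested. Of 14 transcription factors of the GABAergic lineage, 5 were higher and 7 lower in the PFC, Satb1 (1.19), which marks cells from the medial ganglionic eminence, among the former and Nr2f2 (-1.91), Prox1 (-1.61) and Dlx2 (-1.15) among the latter. Of 16 genes of other interneuron classes and peptides, all were called, 10 higher and 6 lower, from Cort (4.63) and Cck (2.82) to Chodl (-3.78) and Sncg (-4.28), with a median of 0.79. Of 7 genes of the perineuronal net, 4 were higher, such as Hapln1 (2.49), and none lower, while of 7 genes of fast-spiking cells 1 was higher, Kcns3 (0.41), and 4 lower, such as Tac1 (-1.59) and Syt2 (-0.71).

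None of the genes of these lists was called between psilocybin and vehicle by edgeR's quasi-likelihood test. Among those with small unadjusted p-values were Crh in the PFC at 3 h (log2 fold change 0.51, unadjusted p = 0.00940), Chodl in the PFC at 4 weeks (-0.59, unadjusted p = 0.0191), Lhx6 in the hypothalamus at 3 h (-0.66, unadjusted p = 0.0111) and Sst in the hypothalamus at 4 weeks (0.45, unadjusted p = 0.0156). In the hypothalamus at 3 h the lineage factors had a median of -0.15, against -0.00 for all genes tested.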
